A study of Rattus norvegicus with 6 samples.

Results

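Immediate early genes are switched on in a neuron within minutes of strong synaptic input, without new protein being made first. Calcium entry and the kinases of the MAPK pathway act on transcription factors already bound at their promoters, such as CREB and the serum response factor, and in the dorsal horn of the spinal cord the Fos protein has long been used as a marker of neurons excited by noxious stimuli. The group described here holds 10 such genes chosen by name: the AP-1 subunits Fos, Fosb, Jun and Junb, the zinc finger factors Egr1 and Egr3, the neuronal factor Npas4, the synaptic gene Arc, the nuclear protein gene Ier2 and the phosphatase gene Dusp1. Of these, 9 were found among the 30957 listed genes by an exact match of the gene name, and the expression of Ier2 was not analysed here. All 9 passed the filter on low counts that left 14908 genes for testing.

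The RNA came from the lumbar enlargement of the spinal cord, on the side of the injected leg, of adult female Wistar rats, with the meninges removed. In the bone cancer pain (BCP) group, live Walker 256 cells, a rat mammary carcinoma line passaged as ascites in Wistar rats, had been injected into the cavity of the left tibia, and the sham group had received heat-killed cells of the same line. Tissue was taken on day 14 after deep anesthesia and decapitation, and the dissected tissue held every cell type of the cord. Paw withdrawal tests in the study also ran to day 14, and the part of handling on that day in the values was not tested. Each group had 3 libraries of total RNA depleted of ribosomal RNA, and the labels do not say in so many words that each came from its own rat, so p-values measure the spread between these samples.

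Total gene counts ran from 13366905 to 15004290 in the sham libraries and from 11779485 to 13764758 in the BCP libraries, with normalization factors between 0.982 and 1.02. Levels are given as CPM, the count of a gene scaled to its library's total and by those factors. A gene is said to have changed when its adjusted p was under 0.05 in edgeR's quasi-likelihood test with Benjamini-Hochberg adjustment over all tested genes. Fold changes are BCP against sham on the log2 scale, with the standard error (SE) of the fit.

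Of the 9 immediate early genes tested, Junb and Jun rose in BCP, Arc fell, and 6 did not pass the test. These 3 of 9 are 33.3% of the genes, and 27.9% of all tested genes changed (15.8% higher and 12.1% lower), so the share was near that of the whole table. More than 2-fold changes were seen in 6.45% of all tested genes and in 1 of these 9, Junb. The median log2 fold change of the 9 genes was 0.09, beside -0.01 over all tested genes, with 5 genes above 0 and 4 below. Libraries of the 2 groups did not overlap for 5 of the 9 genes, 2 higher and 3 lower in BCP, against 41.4% of all tested genes (21.7% higher and 19.8% lower).

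**Figure D1:**
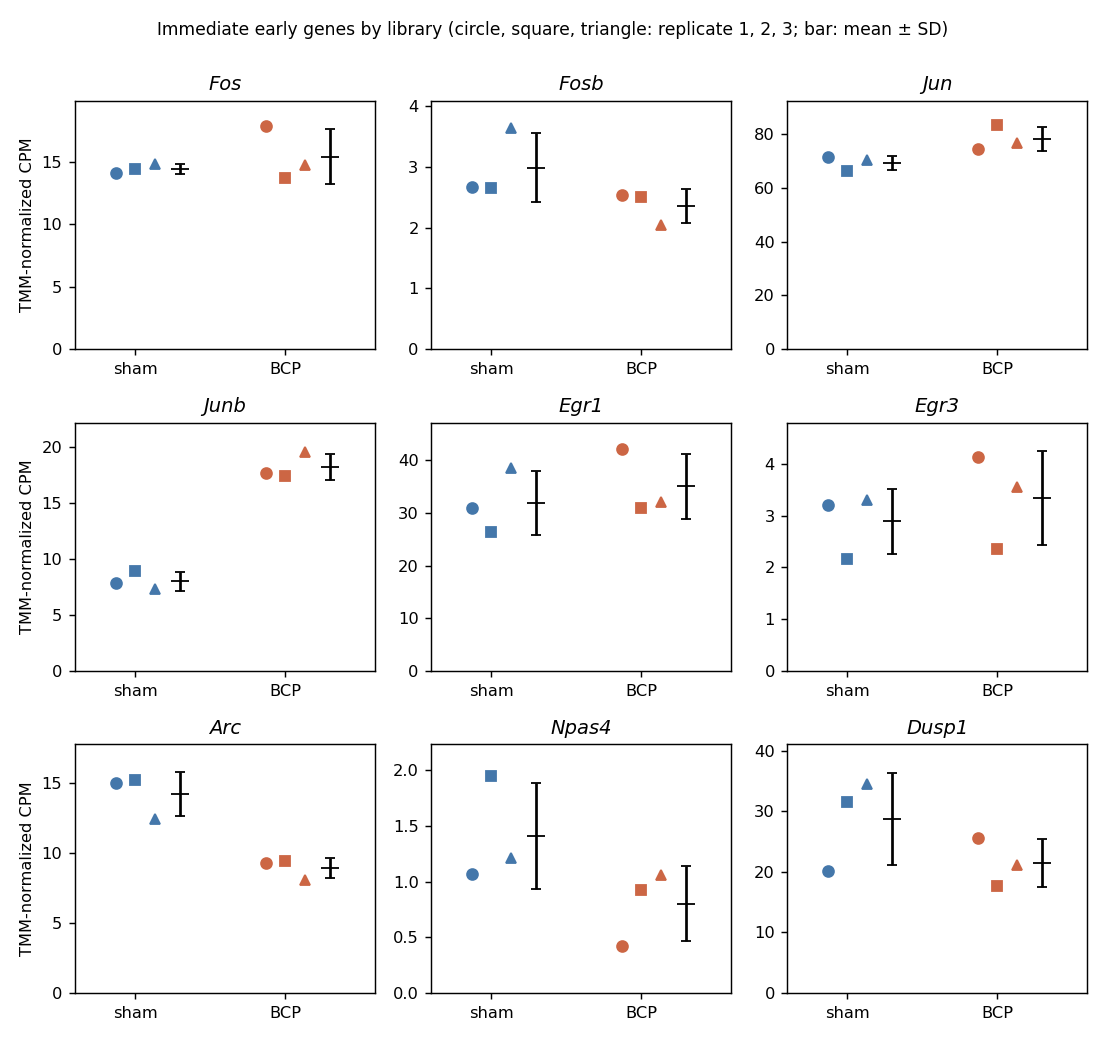
Level of each of the 9 immediate early genes in the 6 libraries, in CPM on linear axes from 0, 1 panel per gene, with 1 point per library (shape for replicate, color for group) and the mean with its SD beside each group of 3. Junb stood above sham in all 3 BCP libraries (17.4 to 19.6 against 7.29 to 8.93 CPM) and Arc below it (8.09 to 9.42 against 12.4 to 15.2 CPM), while Fos, Egr1, Egr3 and Dusp1 overlapped.

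Fos, Fosb, Jun and Junb encode subunits of AP-1, the leucine zipper dimer that binds its target genes as a Jun-Jun or Fos-Jun pair. Junb (ENSRNOG00000042838, Rnor_6.0 19:26092974-26094756) was at 7.85, 8.93 and 7.29 CPM in the sham libraries and at 17.7, 17.4 and 19.6 CPM in the BCP libraries. Every BCP library was far above every sham library, and the spread within each group was small. The means were 8.02 ± 0.834 and 18.3 ± 1.17 CPM (SD, n = 3 each), a log2 fold change of 1.19 (SE 0.13) or a ratio of 2.27 with a 95% interval from 1.89 to 2.73 (adjusted p = 5.00e-07, edgeR). The interval reached below 2-fold, and in edgeR's test against a fold change of 2 Junb did not pass (adjusted p = 0.483). The increase passed in each of 13 alternative settings, at 1.12 to 1.37.

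Jun (ENSRNOG00000026293, 5:114011189-114014277), a dimer partner of Fos proteins, was by count the most abundant of the 9. Its level was 71.3, 66.4 and 70.2 CPM in sham and 74.6, 83.2 and 76.8 CPM in BCP. All 3 BCP libraries were above the sham libraries, but the gap between the nearest libraries of the groups was small. The log2 fold change was 0.18 (SE 0.06), a ratio of 1.13 (adjusted p = 0.0391, edgeR). That call was lost in 8 of 13 alternative settings. Leaving out sham replicate 1, 2 or 3 gave edgeR adjusted p-values of 0.0516, 0.145 and 0.0740, and leaving out BCP replicate 2 or 3 gave 0.200 and 0.0667.

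Fos (ENSRNOG00000008015, 6:109300433-109303299), the classic marker of neuronal excitation, was at 14.1, 14.4 and 14.9 CPM in sham and at 17.9, 13.7 and 14.8 CPM in BCP. The sham libraries were nearly level, and in BCP replicate 1 was high while replicates 2 and 3 lay within or just below the sham range. The log2 fold change was 0.09 (SE 0.12, 95% interval -0.16 to 0.34; adjusted p = 0.633, edgeR), so the interval held no change as large as 2-fold. Without BCP replicate 1 the estimate was -0.02.

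Fosb (ENSRNOG00000046667, 1:80214494-80221710), a relative of Fos whose truncated form is long-lived in neurons, had few counts, 35, 38 and 54 in sham and 30, 35 and 27 in BCP. These were 2.67, 2.65 and 3.65 CPM against 2.53, 2.50 and 2.04 CPM. The BCP libraries all lay below the sham libraries, by a margin smaller than the spread within either group. The log2 fold change of -0.35 (SE 0.25, 95% interval -0.87 to 0.18) did not pass the test (adjusted p = 0.351, edgeR).

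Egr1 and Egr3 encode zinc finger transcription factors induced by synaptic activity through MAPK signaling. Egr1 (ENSRNOG00000019422, 18:27657628-27661429) was at 30.9, 26.4 and 38.5 CPM in sham and 42.1, 30.9 and 32.1 CPM in BCP. Both groups held a single high library, sham replicate 3 and BCP replicate 1, and the groups overlapped because sham replicate 3 was above BCP replicates 2 and 3. The log2 fold change was 0.13 (SE 0.17, 95% interval -0.29 to 0.54; adjusted p = 0.652, edgeR), and it was -0.01 without BCP replicate 1. Egr3 (ENSRNOG00000017828, 15:51756736-51760715) was at 3.20, 2.16 and 3.31 CPM in sham and 4.14, 2.36 and 3.56 CPM in BCP. Replicate 2 was the lowest in each group and the groups overlapped, with a log2 fold change of 0.20 (SE 0.26, 95% interval -0.34 to 0.75; adjusted p = 0.623, edgeR).

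Npas4 and Arc are the 2 genes of the group most closely tied to neurons, Npas4 as a calcium-dependent transcription factor that shapes inhibitory synapses and Arc as a regulator of AMPA receptor removal from the synapse. Arc (ENSRNOG00000043465, 7:115907097-115910541) was at 15.0, 15.2 and 12.4 CPM in sham and 9.29, 9.42 and 8.09 CPM in BCP. Every BCP library was below every sham library. The means were 14.2 ± 1.56 and 8.94 ± 0.732 CPM (SD, n = 3 each), and Arc fell by 0.67 on the log2 scale (SE 0.14), a sham to BCP ratio of 1.59 (adjusted p = 0.000810, edgeR). The decrease passed in each of 13 alternative settings, with values from -0.76 to -0.48.

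Npas4 (ENSRNOG00000020009, 1:220261008-220265772) had the fewest counts of the 9, at 14, 28 and 18 in sham and 5, 13 and 14 in BCP. The levels were 1.07, 1.95 and 1.22 CPM in sham and 0.422, 0.928 and 1.06 CPM in BCP. The groups were separated by only the gap between sham replicate 1 and BCP replicate 3. The log2 fold change was -0.79 (SE 0.40), and its 95% interval from -1.62 to 0.04 covered both no change and a more than 2-fold decrease (adjusted p = 0.157, edgeR), so a difference was not detectable at this depth.

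Dusp1 (ENSRNOG00000003977, 10:16970626-16973418) encodes a phosphatase that switches off MAP kinases and is itself induced by them. It was at 20.0, 31.5 and 34.5 CPM in sham and 25.5, 17.6 and 21.0 CPM in BCP. Sham replicate 1 lay among the BCP libraries and the other sham libraries above them. The log2 fold change was -0.43 (SE 0.26, 95% interval -1.10 to 0.23; adjusted p = 0.307, edgeR). Without sham replicate 1 it was -0.63 (adjusted p = 0.00174, edgeR), so 1 library decided whether Dusp1 passed.

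**Figure D2:**
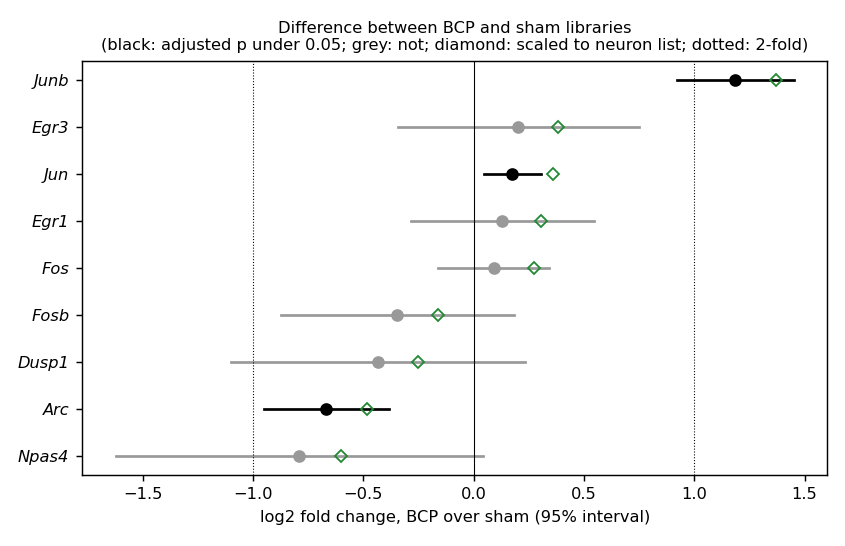
Log2 fold change of BCP against sham for each of the 9 genes (x axis), with lines for the 95% interval of the edgeR fit, black for genes that changed and grey for the others, open diamonds for libraries scaled to the neuron list and dotted lines at 2-fold. The intervals of 6 genes lay within 2-fold in either direction, and those of Junb, Npas4 and Dusp1 reached 2-fold.

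Before counting error was considered, the typical spread within groups was wider for the 9 genes than for the whole table. The SD of log2 CPM within groups, pooled over both groups, had a median of 0.212 for the 9 genes and 0.118 for all tested genes. Part of such a spread is counting error, which is larger for genes with few counts, so each SD was also divided by the SD that counting alone would give. By this ratio the middle gene of the 9 was Fos at 1.40, beside a median of 1.39 over all tested genes, so the typical spread was alike. For 7 of the 9 genes the spread was under 2 times that of counting, with Junb at 1.04 and Fosb at 0.866. The share of all genes under 2 times is not given here. Dusp1 at 4.32 and Egr1 at 3.76 stood at the 97.7 and 96.9 percentiles of all tested genes. Egr1 counts lay between 378 and 570 in every library, and its highest library was 1.46 times its lowest in sham and 1.36 times in BCP. For Dusp1 those ratios were 1.72 and 1.45.

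The highest libraries were in part the same for several genes. Sham replicate 3 and BCP replicate 1 were the highest of their groups for Fos, Fosb, Egr1, Egr3 and Dusp1, which is 5 of the 9 genes, or 55.6%. This pair is named because it was the most frequent among these 9 genes, so its shares among other genes are no test of it. Some leads were small. Fosb was at 2.53 CPM in BCP replicate 1 and 2.50 CPM in BCP replicate 2, and Egr3 at 3.31 CPM in sham replicate 3 and 3.20 CPM in sham replicate 1. Sham replicate 3 and BCP replicate 1 were also the highest for 12.1% of all tested genes, for 8 of 48 other immediate early genes (16.7%) and for 5 of 12 heat shock and stress genes (41.7%). The part of tissue stress in the spread of the 9 genes was not tested. BCP replicate 2 was the lowest of its group for Fos, Junb, Egr1, Egr3 and Dusp1. Jun, Junb, Arc and Npas4 had their highest libraries elsewhere. These are descriptions of 6 libraries, with no test.

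**Figure D3:**
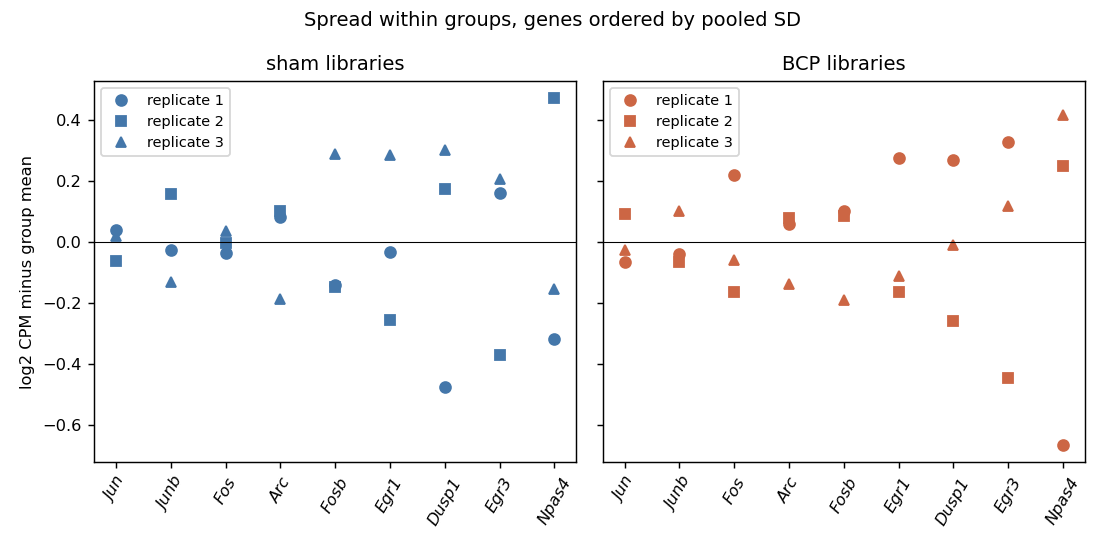
Deviation of each library from the mean of its own group, in log2 CPM (y axis), for each of the 9 genes in order of their pooled SD (x axis), with the sham libraries on the left, the BCP libraries on the right and 1 shape per replicate. Sham replicate 3 and BCP replicate 1 were the highest of their groups for Fos, Fosb, Egr1, Egr3 and Dusp1.

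Levels between genes were compared with the FPKM values of the authors, which are scaled to gene length. Averaged over all 6 libraries, Jun was highest at 23.9 ± 2.25 FPKM (SD, n = 6), above Dusp1 in every library. Dusp1 at 12.9 ± 3.36, Egr1 at 10.7 ± 1.85, Fos at 9.42 ± 0.977 and Junb at 7.41 ± 3.30 FPKM followed, each overlapping its neighbor in the order. Junb held the lower end of this middle group in sham at 4.44 ± 0.469 FPKM, and its BCP level was 10.4 ± 0.714 FPKM (SD, n = 3 each). Arc, at 2.24 ± 0.566 FPKM, lay below every library of Junb and above every library of Egr3 (0.842 ± 0.203). Npas4 at 0.449 ± 0.198 and Fosb at 0.407 ± 0.0760 FPKM were lowest and did not differ beyond their spread.

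**Figure D4:**
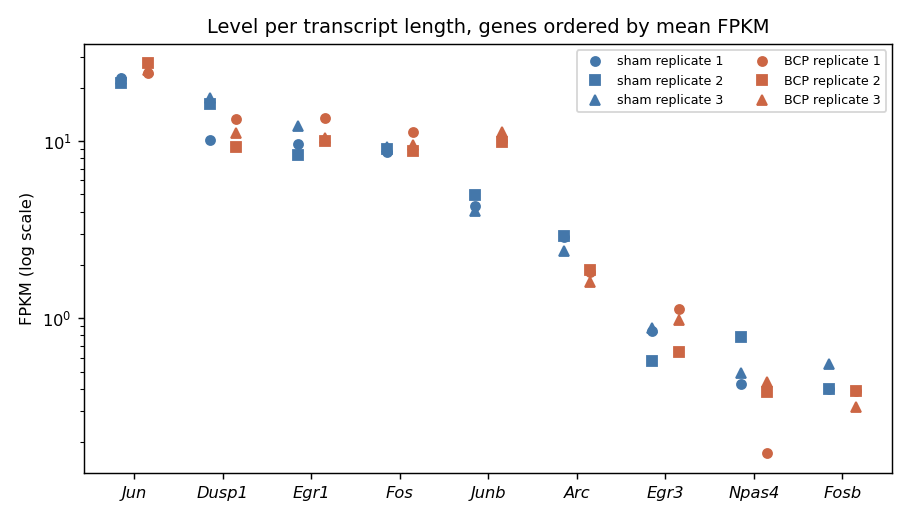
FPKM of the 9 genes in the 6 libraries on a log axis, ordered by their mean, with 1 point per library, color for group and shape for replicate. Jun was above Dusp1 in all libraries, Junb above Arc and Arc above Egr3, and the other neighbors overlapped.

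Promoter sequences were read for the genes at hand because CREB and serum response elements are the textbook route to immediate early transcription. The RefSeq promoter table for the rat build GRCr8, with windows from 250 bases before to 50 after each start, held 6 of the 10 genes: Fosb, Npas4, Dusp1, Egr1, Junb and Ier2. The full cAMP response element TGACGTCA, searched on both strands, was in the windows of Dusp1 and Ier2 and in 1.83% of 33469 promoters. Its core TGACG, which the full element contains, was in 4 of the 6, namely Dusp1, Egr1, Junb and Ier2, and in 21.2% of promoters. The CArG box, the binding motif of serum response factor, was in that of Egr1 and in 1.64% of promoters, and the TATA motif TATAAA was in those of Fosb and Junb and in 14.2%. The AP-1 motif TGANTCA (7.33% of promoters) and the EGR motif GCGNGGGCG (4.98%) matched none of the 6 windows. Shown are the 180 bases before the start for Junb, the gene that rose most, and for Egr1 and Dusp1, the 2 with the widest spread relative to counting, all on the plus strand, with matches to the TGACG core on either strand, the full element, the CArG box or TATAAA in capitals. A match is a description of the letters and not a measured binding site.
Junb (chr19:40080946-40081125): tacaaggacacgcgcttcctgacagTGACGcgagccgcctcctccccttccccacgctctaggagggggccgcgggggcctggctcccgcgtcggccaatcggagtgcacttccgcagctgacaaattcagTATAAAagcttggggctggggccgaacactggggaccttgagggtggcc
Egr1 (chr18:26736898-26737077): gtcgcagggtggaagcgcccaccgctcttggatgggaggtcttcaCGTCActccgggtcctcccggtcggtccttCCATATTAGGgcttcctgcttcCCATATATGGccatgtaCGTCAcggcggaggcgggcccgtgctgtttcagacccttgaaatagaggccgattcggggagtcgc
Dusp1 (chr10:17184673-17184852): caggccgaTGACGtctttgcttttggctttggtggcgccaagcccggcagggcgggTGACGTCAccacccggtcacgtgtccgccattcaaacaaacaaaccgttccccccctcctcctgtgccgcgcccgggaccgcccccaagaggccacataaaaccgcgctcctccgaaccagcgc
Counted from the start of transcription, the first base of the TGACG core in Junb was at -155 and that of the TATA motif at -49. In Egr1, CArG boxes began at -105 and -83, between matches to the core on the minus strand at -135 and -66. In Dusp1, whose full element began at -124, a further core match began at -172.

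A wider list of immediate early and early response genes gave a different count from the 9. Of 51 further names, 50 were found and 48 were tested, of which 21 rose, 1 fell and 26 did not pass the test. That is 45.8% changed against 27.9% of all tested genes, with 12 of the 48 more than 2-fold higher in BCP against 6.35% of all tested genes, and a median log2 fold change of 0.33. The list was chosen with earlier results of these data known, so these shares describe the list and are no test of early response genes. Of the 22 that changed, 20 passed in every alternative setting, the exceptions being Egr2 and Trib1, a pseudokinase gene named here for that reason, which did not pass without sham replicate 1 or BCP replicate 3 (edgeR adjusted p up to 0.101).

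Described here are the 8 that rose with the smallest p-values and the 1 that fell. Pim1, a kinase downstream of STAT signaling, rose from 4.45 ± 0.629 to 20.3 ± 1.93 CPM (log2 fold change 2.19, SE 0.14; adjusted p = 5.83e-10, edgeR). Myc, a growth regulator, rose from 3.42 ± 0.805 to 15.8 ± 1.51 CPM, a log2 fold change of 2.21 (SE 0.17). Both had groups far apart, with the lowest BCP library of Pim1 at 18.1 CPM and the highest sham library at 5.03 CPM. The acute phase factors Cebpb and Cebpd rose by 1.90 (SE 0.18) and 1.81 (SE 0.22), and Nfkbiz, a nuclear partner of NF-kappaB, by 1.90 (SE 0.22). Ptgs2, the inducible cyclooxygenase that makes prostaglandins, rose from 8.10 ± 1.33 to 21.0 ± 3.48 CPM (1.38, SE 0.15). Zfp36, which destabilizes cytokine mRNAs, rose by 1.19 (SE 0.12) and the ERK phosphatase Dusp6 by 0.82 (SE 0.10). The gene that fell, the clock gene Per1, went from 64.1 ± 4.68 to 42.9 ± 4.81 CPM (-0.58, SE 0.08; adjusted p = 1.97e-05, edgeR).

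Family relatives, genes that share a member's name stem and the Nr4a genes, picked here after their values were seen, gave mixed values. Egr2 rose from 12, 2 and 9 counts in sham to 14, 19 and 22 in BCP (adjusted p = 0.0315, edgeR), with sham replicate 1 close to the lowest BCP library. Its call was lost with DESeq2, and without sham replicate 2 or 3 or BCP replicate 2 or 3, with edgeR adjusted p-values up to 0.163. Fosl1 and Egr4 had too few counts to be tested, with Fosl1 at 5, 3 and 5 in sham and 7, 9 and 15 in BCP, and Egr4 at 0, 0 and 4 in sham and 0, 3 and 0 in BCP. Jund was at 39.9 ± 4.62 and 35.0 ± 0.335 CPM and Fosl2 at 1.74 ± 0.363 and 1.56 ± 0.107 CPM in sham and BCP, and neither passed the test. The nuclear receptor genes Nr4a1, Nr4a2 and Nr4a3, which synaptic activity induces along with Fos, had log2 fold changes of -0.11, -0.10 and -0.02 and did not pass either. Among further Dusp and Ier genes, Dusp2 rose by 2.78 (SE 0.47; adjusted p = 0.000141, edgeR), the largest change of the wider list. Its counts were low, 2, 2 and 6 in sham and 25, 19 and 21 in BCP. Ier5 rose by 1.08 (SE 0.17; adjusted p = 5.43e-05, edgeR). Dusp4, Dusp5 and Ier3, at -0.005, -0.02 and 0.62, did not pass. The most abundant of the wider list were Sgk1, Errfi1 and Per1. Sgk1, a stress-responsive kinase, was at 164 ± 8.67 and 172 ± 35.7 CPM, and Errfi1, an inhibitor of EGF receptor signaling, at 80.8 ± 7.96 and 75.5 ± 3.53 CPM, without passing the test.

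**Figure D5:**
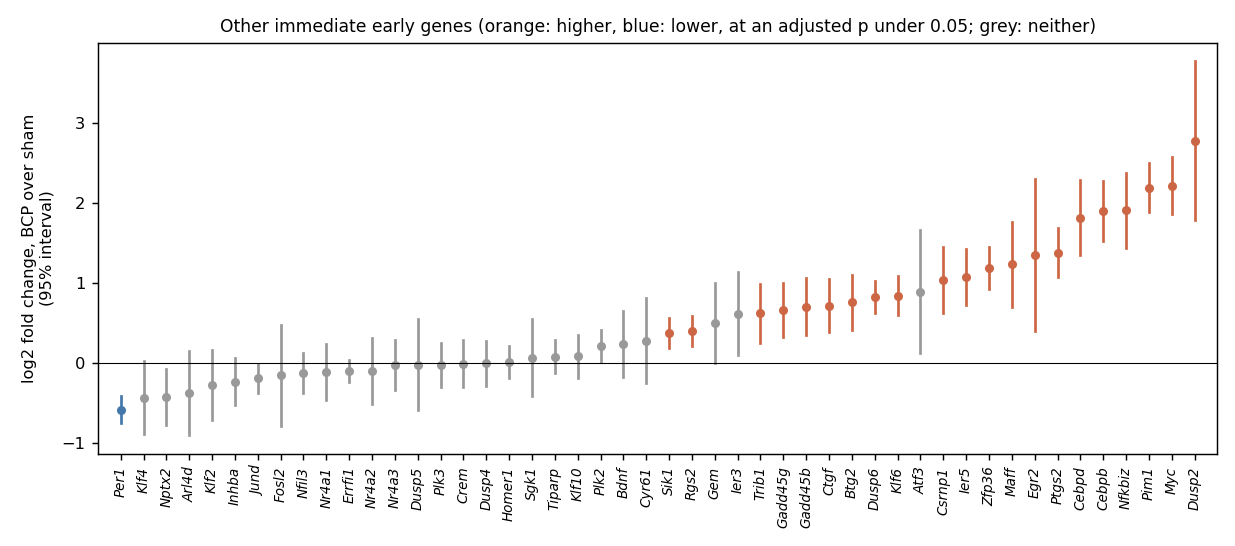
Log2 fold change of BCP against sham (y axis) with its 95% interval for each of the 48 further early response genes, in order of the change (x axis). The 21 that rose (orange) had Dusp2 at 2.78 at the top and Myc at 2.21 and Pim1 at 2.19 near it. Per1 (blue) was the gene that fell, and 26 (grey) did not pass.

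Many of these genes are also used by immune and glial cells, and markers of those cells moved with the groups. For comparison, 15.8% of all tested genes rose and 12.1% fell. In the microglia list 9 of 12 genes rose, and its summed level was 280 to 373 CPM in sham and 989 to 1209 CPM in BCP. All 7 T cell genes rose, from 6.08 to 6.63 CPM in sham to 48.9 to 56.0 CPM in BCP, with Cd3d at 0 counts in every sham library. The 5 neutrophil genes summed to 2 to 11 counts in sham and 28 to 61 in BCP, and 1 was tested and rose. All 5 red blood cell genes rose, from 249 to 264 CPM to 476 to 689 CPM. The part of these cells in the values of Junb, Jun and the wider list was not tested.

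In the neuron list 9 of 15 genes fell and none rose, beside 12.1% lower and 15.8% higher over all tested genes. Its median log2 fold change was -0.18 and its summed level 10784 to 11011 CPM in sham and 9158 to 10158 CPM in BCP. No neuron marker was at 0. All 6 oligodendrocyte genes fell (38260 to 43485 CPM in sham, 27382 to 30563 CPM in BCP), and 3 of 6 genes of the dorsal root ganglion and nerve root fell (297 to 320 CPM in sham, 216 to 265 CPM in BCP). Of 7 astrocyte genes 1 rose and 3 fell (6481 to 6716 CPM in sham, 7580 to 9656 CPM in BCP, highest in BCP replicate 1). Their median log2 fold change was -0.005 and the highest 1.53, so the higher sum is not a rise of the list as a whole. In this bulk tissue, fewer cells of a type and less RNA per cell cannot be told apart, and the part of the lower neuronal signal in the value of Arc was not tested. Arc fell by 0.67, while values of the neuron list went from -0.34 to 0.06. Tested ganglion and root genes went from -1.19 to -0.21. Bulk libraries do not show which neurons express Arc, so neither range sets a limit for those neurons. With libraries scaled to the neuron list, the median of all tested genes was 0.17, Arc was at -0.48 (adjusted p = 0.0115, edgeR), Jun at 0.36 and Junb at 1.37. The endothelial (0 of 5), meninges and fibroblast (0 of 5) and skeletal muscle (0 of 1) genes held none that changed, at an unadjusted p under 0.05 in edgeR or in DESeq2 alike. Summed, the endothelial genes were at 302 to 318 CPM in sham and 295 to 303 CPM in BCP. The meninges and fibroblast genes were at 147, 155 and 170 CPM in sham and 222, 164 and 172 CPM in BCP, highest in sham replicate 3 and BCP replicate 1. This list was drawn from Col1a1, Col1a2, Col3a1, Dcn, Lum and Pdgfra, and other cells of the cord may express some of them, so its sum is no measure of meninges or fibroblasts alone. Fos, Egr1 and Dusp1 were highest in the same libraries, and the part of the cells that express this list in their spread was not tested.

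Summed over the 9 genes, the level was 166, 170 and 186 CPM in sham and 194, 178 and 179 CPM in BCP, and the groups overlapped. Per 1000 CPM of the neuron list it was 15.4, 15.4 and 17.2 in sham and 19.1, 18.9 and 19.5 in BCP, which did not overlap. The neuron list itself was lower in BCP (9158 to 10158 CPM against 10784 to 11011 CPM), which raises this ratio for any gene at an equal level. With libraries scaled to that list, the median log2 fold change of all tested genes was 0.17. The share of all genes whose groups separate under this division is not given here, so the ratio is no measure of a change per neuron. Jun made up the largest share of the summed level in both groups.

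The kinases and transcription factors upstream of immediate early genes moved in both directions. Of 33 tested, 6 rose and 6 fell, which is 36.4% changed against 27.9% of all tested genes, and none changed more than 2-fold, against 6.45%. The median was 0.06. When libraries were scaled to the neuron list 13 rose and 0 fell, and with library size alone 3 fell. Rps6ka1, a ribosomal S6 kinase that phosphorylates CREB, rose from a mean of 24.0 to 45.2 CPM (0.92, SE 0.10; adjusted p = 4.02e-07, edgeR). Its relative Rps6ka3 rose by 0.38, the activity-regulated factor Mef2a by 0.33, the SRF coactivator Mkl1 by 0.33, Creb1 by 0.28 and Atf1, a close relative of CREB, by 0.26. The CREB coactivator Crtc1 was -0.37, and the calcium-dependent kinases Camk2a and Camk2b were -0.22 and -0.18. Mapk10, the neuronal JNK kinase, was -0.18, the protein kinase A subunit Prkaca -0.17 and the ERK kinase Mapk3 -0.13. The most abundant besides Camk2b were the calcineurin subunits Ppp3ca (-0.12; adjusted p = 0.0534, edgeR) and Ppp3r1 (0.06), which did not pass. Only Rps6ka1, Rps6ka3, Mef2a and Mkl1, 4 of the 12, passed in every alternative setting. Leaving out 1 library ended the call of Camk2a (any library but BCP replicate 3), Mapk3 (any but sham replicate 2) and Creb1 (any but sham replicate 3), with edgeR adjusted p-values up to 0.215, 0.138 and 0.109. It also ended that of Atf1 (without sham replicate 1 or 2 or BCP replicate 3), Mapk10 (without BCP replicate 3) and Prkaca (without sham replicate 2 or BCP replicate 3), with values up to 0.151, 0.0957 and 0.0708.

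Heat shock and stress genes, which respond to dissection as well as to disease, were read beside the immediate early genes. Of 12 tested, 3 rose and 4 fell, which is 58.3% changed against 27.9% of all tested genes, in both directions and with a median of 0.03. Mt2A, a metallothionein, rose from 18.1 ± 3.72 to 75.0 ± 12.5 CPM, a log2 fold change of 2.06. Hmox1, the heme oxygenase, rose by 1.23 and Ddit3, the stress factor CHOP, by 0.47, a call lost without BCP replicate 2 (adjusted p = 0.0539, edgeR). The inducible chaperone gene Hspa1b fell from 7.38 ± 1.80 to 3.19 ± 0.658 CPM (-1.19, SE 0.22; adjusted p = 0.000364, edgeR). Its near-identical copy Hspa1a had 0 counts in every library, so the assignment of reads between the copies is uncertain. The paper also reported Hspa1b as lower in BCP, both in its sequencing and by RT-qPCR in separate samples. Ddit4 fell by 0.45, Dnajb1 by 0.28 and Hsph1 by 0.16, while Hspa5, the most abundant, was at 490 ± 24.8 and 528 ± 32.8 CPM and did not pass. With libraries scaled to the neuron list, Dnajb1 and Hsph1 did not pass. Sham replicate 3 and BCP replicate 1, the highest libraries of their groups for Fos and Egr1, were also the highest for Hsph1, Hspa5, Hspa8, Gadd45a and Cdkn1a. That is 5 of the 12, while Hspa1b was highest in sham replicate 1 and BCP replicate 2. Hspa8, Gadd45a and Cdkn1a are named here after their values were seen.

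Long noncoding RNAs (lncRNAs) beside the immediate early genes were read from the separate lncRNA table. Within 10 kb of a gene of the group, 12 lncRNAs were listed beside 6 genes, and 3 of them overlapped the gene. Only 4 passed the filter on low counts, and 0 changed in edgeR's test, with 0 at an unadjusted p under 0.05 and 0 changed in DESeq2. Of all tested lncRNAs, 1.97% changed (1.57% higher and 0.395% lower), and 1.14% rose more than 2-fold. Beside Jun, NONRATT022390.2 was at 15, 15 and 14 counts in sham and 19, 19 and 12 in BCP, and NONRATT022391.2 at 47, 42 and 35 and at 49, 24 and 43. Beside Junb, NONRATT014581.2 had 27, 20 and 28 counts in sham and 17, 34 and 34 in BCP, and NONRATT014582.2 had 9, 29 and 22 and then 12, 19 and 22. The groups overlapped for each of the 4, while 11.0% of all tested lncRNAs had every BCP library higher and 9.68% every BCP library lower. How the counting treated strand is not given in the sources used here, so reads from a gene and an overlapping lncRNA on the opposite strand may not be separated.

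In the annotation deposited with the counts, the 4 AP-1 genes Fos, Fosb, Jun and Junb shared the osteoclast differentiation pathway, a term held by 120 genes, and Fos, Jun and Dusp1 shared MAPK signaling, held by 243. The mean profile of the 9 genes over the 6 libraries was nearly flat, as an average of genes that moved in opposite directions, such as Junb at 1.19 and Arc at -0.67. The genes with the closest profile, by the root mean square distance in centered log2 CPM, were an unnamed gene (ENSRNOG00000056151) at 0.0144, Vars2 at 0.0189, Actr8 at 0.0211, Fbxw2 at 0.0232 and Aebp1 at 0.0237. None of the 5 changed, which follows from their being matched to a flat profile.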

How the data were processed

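RNA-seq was read from 3 sham and 3 BCP libraries, grouped by their labels. Reads had been cleaned with Seqtk, aligned by the authors to Rnor_6.0 using HISAT2 2.0.4, and converted to FPKM using StringTie 1.3.0. The deposited tables hold raw counts per gene and per lncRNA transcript beside the FPKM of the authors. The counter and its treatment of strand and of reads with several locations are not given in the sources used here. Annotation columns were used for names, loci and pathways.

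The tests used edgeR 4.0.16 (R 4.3.3). Low rows were removed by filterByExpr, libraries were scaled by TMM, and the robust quasi-likelihood model had group as its sole term, followed by Benjamini-Hochberg adjustment over 14908 genes or 12157 of 22783 lncRNAs. A 95% interval is the log2 fold change plus or minus its SE times the t quantile of the fit. Log2 CPM used a prior count of 2. The biological coefficient of variation was 7.72% for genes and 33.4% for lncRNAs, and precision is further limited by the 3 libraries per group. DESeq2 1.42.0, other scalings and filters, and leaving out each library were alternatives.

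The members, gene lists and tests were chosen with earlier results of these data known. Named are all members, in each further list up to 8 changed genes in each direction with the smallest p and the 3 most abundant, and the 5 genes nearest to the members' mean profile. Genes outside this rule are named as such or as cell type markers.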

Additional observations from a re-analysis of the deposited data

How the results depend on the processing

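Of the 9 genes, Junb and Arc passed the threshold in 13 of 13 alternatives and Jun in 5 of 13. Jun did not pass with DESeq2 (0.18), upper-quartile normalization (0.14) or a replicate block (0.17), and each of these left 1 of the 9 genes changed higher. Leaving out 1 library in turn gave Jun 0.13 to 0.21, Dusp1 -0.63 to -0.28, Fos -0.0172 to 0.17 and Egr1 -0.0132 to 0.29, and 1 to 2 of the 9 genes changed higher and 1 to 2 lower. Among other early response genes, 2 changed lower with upper-quartile normalization and 1 to 2 with a library left out, and among upstream genes 3 changed lower with library size only and 3 to 6 with a library left out. With libraries scaled to the neuron list, 4509 genes changed higher and 210 lower (9 more than 2-fold lower), 13 upstream genes changed higher and 0 lower, and 6 stress genes changed higher and 2 lower. Genes more than 2-fold lower, 16 in all, numbered 37 without a filter, 6 with at least 10 counts in every library and 16 to 33 with a library left out. The test against a fold change of 2 gave 548 higher and 0 lower. NONRATT014582.2, at -0.03, was at 0.00753 with library size only, at 0.0304 with the replicate block and at -0.35 to 0.33 with a library left out, and NONRATT022391.2 was at -0.21 to 0.34. Npas4 has no value under the stricter filter. In 305 further values, direction and call (or count within 1.5 times) were kept.

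Libraries with the same replicate number did not deviate together (correlations from -0.105 to 0.044), and for genes those with unlike numbers ranged from -0.119 to 0.139. With so few libraries this cannot decide whether equal numbers were handled together. A replicate block gave Junb 1.19, Arc -0.67 and Jun 0.17. Counts of fewer than about 50 in a library limit Npas4, Fosb and Egr3. The cause of the changes with setting was not tested.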
